A study of Drosophila melanogaster with 6 samples.

Results

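The aquaporin family of Drosophila was followed in intestinal RNA-seq of larvae that lack ecdysone, with and without a knockdown of the ecdysone receptor EcR in enterocytes. Its members, and the gene lists used below, were chosen with earlier results of these data known. The members were set by gene symbol: Drip, Prip, bib, Eglp1, Eglp2, Eglp3 and Eglp4. These are 7 genes among the 17895 genes and 24278 entries of the deposited count table. All 7 were counted, and all 7 were among the 12193 entries that passed the filter on low counts, although Eglp1 did so with at most 16 counts in a library.

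Aquaporins are channels that sit in the cell membrane as tetramers, each subunit with its own pore, and they let water cross along osmotic gradients set up by ion transport. Drip and Prip are water channels. The entomoglyceroporins Eglp1 to Eglp4 belong to a branch of the family found in insects, whose studied members also pass glycerol and urea. The gene big brain (bib) is a relative with a long cytoplasmic tail that acts with Notch in the embryo to limit the number of neural precursors. In the fly excretory system, the Malpighian tubules, water channels have been described in the stellate cells and entomoglyceroporins in the principal cells, the cell type that drives ion secretion, and the tubules join the intestine at the junction of midgut and hindgut.

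RNA was made from whole larval intestines of 2 genotypes, with 3 libraries each, labelled EcRi and control. Both genotypes carried Tub-LexA driving LexO-spok RNAi, which acts on the ecdysone-synthesis gene spookier (spok), together with Tub-GAL80ts. By the crosses in the methods, both also carried UAS-EcR RNAi, and only the EcRi larvae had the enterocyte driver Myo1A-GAL4. The control titles read myo1a-con, and the study's heading for its raw counts likewise speaks of a control knockdown driven by Myo1A-GAL4, so whether the control larvae had this driver, and which RNAi transgene they carried, cannot be told from the sources. Egg laying lasted 8 h, larvae were kept for 6 days at 18 °C to reach the moult into the last instar, and both genotypes were then kept for 4 days at 29 °C, where GAL80ts no longer blocks GAL4. The labels call the libraries biological replicates without naming cultures or the number of larvae in each.

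The libraries held between 200890663 and 246255664 counts, so that 3 counts, taken here as the detection limit, correspond to 0.00969 to 0.0190 CPM. CPM are counts per 1000000 counts of a library after TMM scaling by edgeR, which had factors of 1.21 to 1.30 in EcRi and 0.713 to 0.845 in the control, and they are given without correction for gene length unless stated per kb. EcR itself was measured at 29.9 ± 1.87 CPM in EcRi libraries and 33.5 ± 10.5 CPM in control libraries (SD, n = 3 each; log2 fold change -0.17, edgeR adjusted p = 0.517), so the targeted gene did not separate the labels in RNA from the whole organ. Directions below are those of the libraries with these labels. Because the tissue holds many cell types, fewer cells of a type and less RNA per cell cannot be told apart.

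In EcRi intestines 5 of the 7 genes fell, namely Drip, Prip, Eglp2, Eglp3 and Eglp4, bib rose, and the difference of Eglp1 did not pass the test (edgeR's quasi-likelihood method, adjusted p below 0.05). Over all 12193 tested entries, 59.5% were called, 29.3% lower and 30.1% higher, so a call by itself was common in these data. The median log2 fold change was -1.22 over the 7 members and 0.03 over all tested entries. With a further limit of -1 or less on the log2 fold change, 4 of the 7 members, Drip, Eglp2, Eglp3 and Eglp4, were lower, where 14.5% of all tested entries met it, and with a limit of 1 or more bib was higher, where 16.7% met it. All EcRi libraries lay below all control libraries in CPM for 5 members and 33.4% of tested entries, and above them for 1 member and 34.9% of tested entries. In either direction these were 6 of the 7 members and 68.3% of tested entries.

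**Figure D1:**
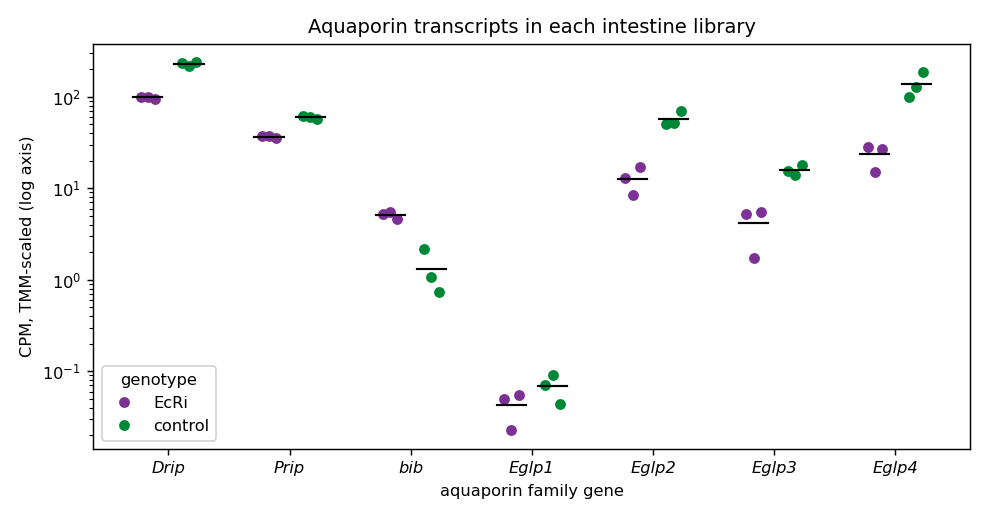
CPM (TMM-scaled, log axis) of the 7 aquaporin genes in each of 3 EcRi libraries (purple, left) and 3 control libraries (green, right), with points for libraries and bars for means. The EcRi libraries lie below the control libraries for Drip, Prip, Eglp2, Eglp3 and Eglp4 and above them for bib, and the genotypes overlap for Eglp1.

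Drip (FBgn0015872; chromosome arm 2R, 11411203 to 11429645, minus strand, dm6) encodes the best known water channel of the fly and was the most abundant member in both genotypes. Its level was 99.4, 99.7 and 95.6 CPM in the EcRi libraries and 235, 216 and 237 CPM in the control libraries. The libraries of a genotype lay close together and the genotypes were far apart: the means were 98.3 ± 2.29 CPM in EcRi and 229 ± 11.6 CPM in the control (SD, n = 3 each), with a coefficient of variation of 2.33% and 5.06%. On the log2 scale Drip changed by -1.22 ± 0.09 (standard error; edgeR adjusted p = 2.07e-05), to 42.8% of the control level. The exact permutation test, two-sided and over log2 CPM, had p = 0.1, the smallest value that 3 libraries against 3 allow, and this was also the value for each of the other members whose genotypes did not overlap.

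Prip (FBgn0033635; 2R, 11436243 to 11442216, plus strand) is the second water channel and lies beside Drip, with 6597 bp between the annotated ends of the 2 genes. It was measured at 37.4, 37.5 and 35.1 CPM in EcRi and at 62.4, 59.8 and 57.8 CPM in the control. Prip had the smallest change among the 6 members that were called, at -0.71 ± 0.08 on the log2 scale (standard error; edgeR adjusted p = 0.000136). This call depended on the scaling. With library totals in place of TMM, the log2 fold change of Prip was -0.06 and its adjusted p from edgeR was 0.657, while the median over all tested entries moved to 0.68, so that Prip stayed below the median entry with either scaling.

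Drip and Prip did not fall by the same amount. The ratio of Prip counts to Drip counts within a library, which no scaling can change, was 0.376, 0.376 and 0.367 in EcRi and 0.265, 0.277 and 0.243 in the control. Every EcRi library was above every control library (mean log2 difference 0.51, two-sided exact permutation test p = 0.1, the smallest possible). This ratio was chosen after the values had been seen.

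The largest falls in the family were those of 3 of the 4 entomoglyceroporin genes, Eglp4, Eglp2 and Eglp3. Eglp4 (FBgn0034885; 2R, 23607592 to 23614710, minus strand) had 28.4, 15.2 and 26.9 CPM in EcRi and 98.6, 129 and 186 CPM in the control. Libraries of both genotypes were spread widely, yet the highest EcRi library was far below the lowest control library. The log2 fold change of Eglp4 was -2.55 ± 0.34 (standard error; edgeR adjusted p = 0.00103), a ratio of means of 0.170, and 3.23% of all tested entries had a lower value.

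Eglp2 (FBgn0034883; 2R, 23603722 to 23616754, minus strand) had 12.8, 8.52 and 16.9 CPM in EcRi and 50.8, 51.0 and 70.4 CPM in the control. Its log2 fold change was -2.17 ± 0.28 (standard error; edgeR adjusted p = 0.000791), and the genotypes did not overlap. Eglp3 (FBgn0034884; 2R, 23605689 to 23606654, minus strand) had 5.29, 1.73 and 5.44 CPM in EcRi and 15.3, 14.0 and 17.98 CPM in the control. EcRi replicate 2 stood apart for Eglp3, well below the other EcRi libraries, and the log2 fold change was -1.93 ± 0.44 (standard error; edgeR adjusted p = 0.0115) with it and -1.55 without it.

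Eglp1 (FBgn0034882; 2R, 23602585 to 23603641, plus strand) was close to silent in these intestines. Its raw counts were 12, 7 and 16 in EcRi and 14, 16 and 7 in the control, above the detection limit of 3 counts in each library but equivalent to only 0.0226 to 0.0557 CPM in EcRi and 0.0444 to 0.0914 CPM in the control. The genotypes overlapped, and the log2 fold change of -0.70 (standard error 0.49) had an adjusted p of 0.254 from edgeR, so no difference was detectable at this depth.

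**Figure D2:**
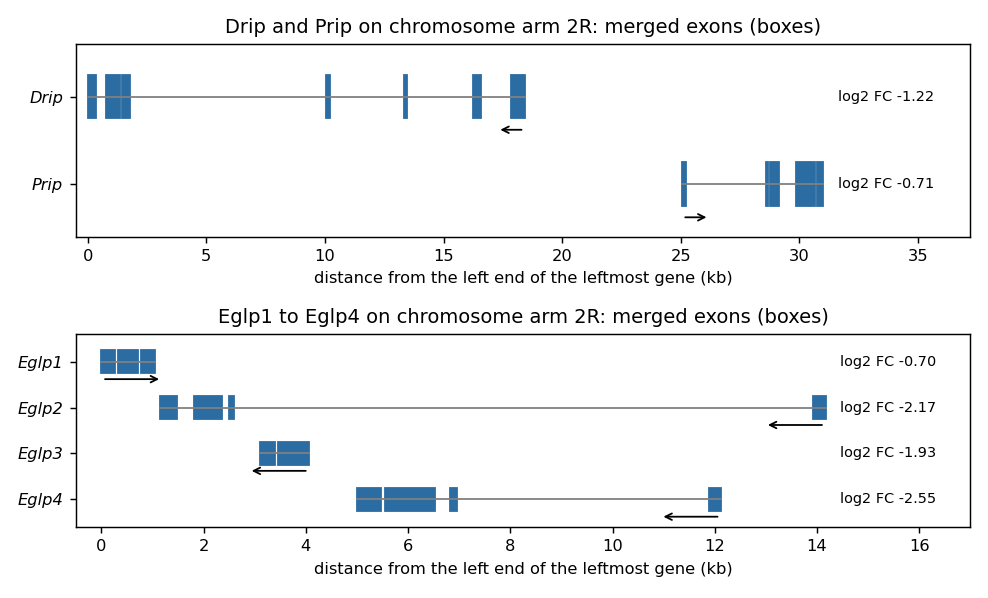
Merged annotated exons (boxes) and gene spans (lines) of Drip and Prip (top) and of Eglp1 to Eglp4 (bottom), against the distance in kb from the left end of the leftmost gene, with arrows for the direction of transcription and the log2 fold change of EcRi over control at the right. Eglp3 and Eglp4 lie inside the longest intron of Eglp2, with log2 fold changes of -2.17 for Eglp2, -1.93 for Eglp3 and -2.55 for Eglp4, and the Drip and Prip genes point away from each other.

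The 4 Eglp genes lie together within 14170 bp of chromosome arm 2R. The longer of the annotated Eglp2 transcripts starts upstream of Eglp4 and runs over an intron of 11559 bp, from 23604952 to 23616510, which holds Eglp3 and Eglp4 whole and on the same strand. No exon base is shared between these genes. Reads from unspliced RNA of the long Eglp2 transcript could still fall in exons of Eglp3 and Eglp4, which was not tested. Eglp1 is on the other strand and ends 80 bp before the end of Eglp2. The 3 nested genes fell together, whereas Eglp1 had a level far below theirs and was not shown to change. How reads that match several related genes were handled is not given in the sources used here, so counts split between such genes would be uncertain.

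Each of the 3 Eglp genes that fell was lowest in EcRi replicate 2. This was not particular to them. Among genes named below, ClC-a, Gpdh1 and Jon65Aiii were also lowest in that library, whereas Uro was highest there. The share of all entries with this pattern was not computed. Ratios of these 3 Eglp genes to each other overlapped between the genotypes. Eglp4 over Eglp2 was 2.22, 1.78 and 1.59 in EcRi and 1.94, 2.52 and 2.65 in the control, and Eglp3 over Eglp2 was 0.414, 0.203 and 0.321 in EcRi and 0.302, 0.274 and 0.255 in the control (two-sided exact permutation tests, p = 0.2 and p = 0.7). Against Drip they had separated. Eglp4 counts per Drip count were 0.285, 0.152 and 0.281 in EcRi and 0.420, 0.596 and 0.785 in the control, a mean log2 difference of -1.34. For Eglp2 over Drip the mean log2 difference was -0.99 and for Eglp3 over Drip it was -0.87, and in these 3 comparisons the EcRi libraries all lay below the control libraries (exact permutation p = 0.1 each, the smallest possible). Without EcRi replicate 2, the difference for Eglp3 over Drip was -0.32. All ratios of this paragraph were chosen after the values had been seen.

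**Figure D3:**
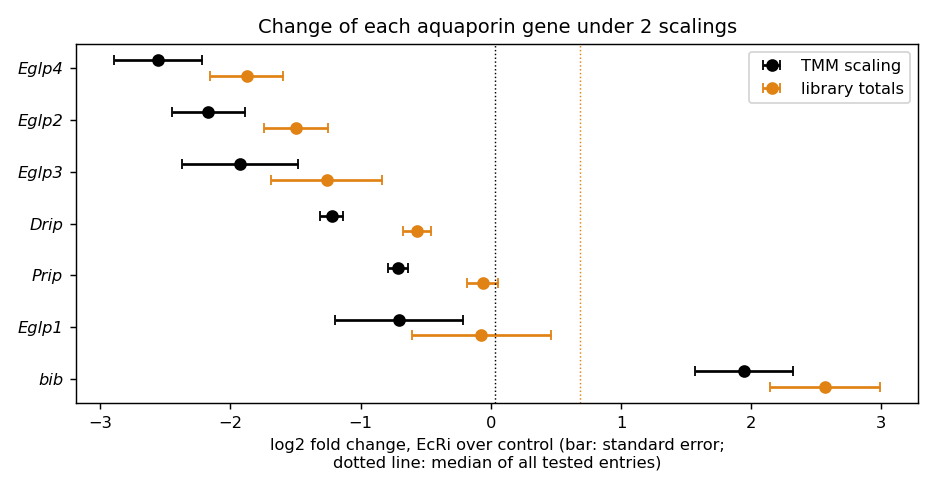
Log2 fold change of EcRi over control for each aquaporin gene from edgeR, with standard errors, under TMM scaling (black) and scaling by library totals (orange), and dotted lines at the median of all tested entries, 0.03 and 0.68. Eglp4, Eglp2, Eglp3 and Drip lie below 0 with either scaling, Prip lies at -0.06 with library totals, and bib lies above 0 with either scaling.

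The gene bib (FBgn0000180; chromosome arm 2L, 9984645 to 9995538, plus strand) moved in the other direction. It had 5.17, 5.47 and 4.67 CPM in EcRi and 2.15, 1.07 and 0.741 CPM in the control. The EcRi libraries were tightly grouped and all above the control, where control replicate 1 was the highest. The log2 fold change was 1.95 ± 0.38 (standard error; edgeR adjusted p = 0.00402), a level 3.86 times that of the control, and with library totals it was 2.57. An antisense noncoding gene, lncRNA:CR13130, shares 99 exon bases with bib, and it had 0 counts in all libraries.

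Levels of different genes were compared per kb of merged exon length. In EcRi the order was Drip with 39.3 ± 0.914 CPM per kb, Prip with 22.8 ± 0.852, Eglp4 with 13.0 ± 4.01, Eglp2 with 10.3 ± 3.40, Eglp3 with 4.603 ± 2.33, bib with 1.56 ± 0.123 and Eglp1 with 0.0454 ± 0.0187 CPM per kb (SD, n = 3). In the control it was Drip with 91.8 ± 4.64 CPM per kb, Eglp4 with 76.4 ± 24.7, Eglp2 with 46.3 ± 9.09, Prip with 37.3 ± 1.43, Eglp3 with 17.5 ± 2.25, bib with 0.403 ± 0.225 and Eglp1 with 0.0733 ± 0.0251 CPM per kb. Prip thus stood above Eglp4 and Eglp2 in each EcRi library and below both in each control library. Neighbours in this order that overlapped were Eglp4 and Eglp2 in EcRi, and Drip with Eglp4 and Eglp4 with Eglp2 in the control.

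**Figure D4:**
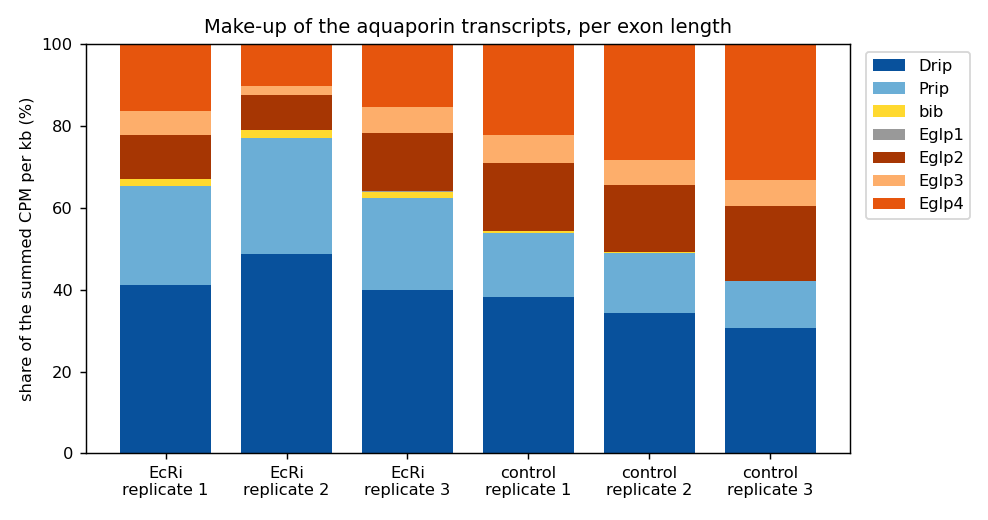
Share of each gene in the summed CPM per kb of the 7 aquaporin genes, in percent, stacked for each of 3 EcRi and 3 control libraries. Drip and Prip together take 62.5 to 77.0% in EcRi and 42.1 to 54.0% in the control, Eglp1 is too small to be seen, and bib is visible mainly in EcRi.

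Summed over the family, the level was 91.6 ± 8.23 CPM per kb in EcRi and 270 ± 36.0 CPM per kb in the control. Drip and Prip made up 65.3, 77.0 and 62.5% of this sum in the EcRi libraries and 54.0, 49.0 and 42.1% in the control libraries. The Eglp genes made up 33.1, 21.0 and 36.1% in EcRi and 45.8, 50.8 and 57.9% in the control. Per kb, the water channels thus held the larger part in each EcRi library, and the Eglp genes held the larger part in control replicates 2 and 3. This order in the control depends on the length correction, since in plain CPM Drip and Prip held 64.0, 58.6 and 51.7% of the control sums, against 35.5, 41.2 and 48.1% for the Eglp genes. In plain CPM Drip and Prip still held more of the sum in each EcRi library (72.6, 81.6 and 70.8%) than in any control library. The share of bib was 1.72 ± 0.285% in EcRi and 0.156 ± 0.0996% in the control.

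Genes beside the members moved in both directions. Over the 19 other protein-coding genes among the 3 nearest on each side of a member, 8 were higher, 5 were lower, 3 were not called and 3 were not tested. Of all tested entries, 30.1% were higher and 29.3% lower. To the left of Drip, CG34054 had a log2 fold change of 2.71 and CG30026 one of 4.36, both higher in EcRi, whereas Smyd4-3 was lower like Drip (-0.86). To the right of Prip, qvr was lower (-1.47) at 0.172 CPM in EcRi and 0.475 CPM in the control, and E(Pc) and inv were higher (0.49 and 1.13). CG7763 lies within Drip on the other strand without sharing exon bases, and its log2 fold change of -0.86 had an adjusted p of 0.161 from edgeR. Next to the Eglp genes, the gene retn, a transcription factor, was higher (0.87), Pde8 was lower (-0.60) and St1 was higher (1.64), and CG43209 on the other side was almost without counts. Beside bib, Dref (0.58) and SoYb (0.55) were higher like bib, and RpL13 (-0.59) and CG31875 (-1.03) were lower.

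The 5 genes whose profile over the 6 libraries was closest to that of Drip, by Euclidean distance of centred log2 CPM, were RNASEK (distance 0.0580), CG12895 (0.0752), mRpL1 (0.0923), AgmNAT (0.0995) and CG33170 (0.101). Their log2 fold changes lay between -1.25 and -1.19. With 2 groups of 3 libraries, this likeness is mostly that of the difference between the genotypes.

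The glycerol that entomoglyceroporins can carry enters metabolism through glycerol kinase and the glycerol-3-phosphate shuttle. Of 14 listed genes of glycerol and polyol metabolism, 12 were tested, 6 were lower and 1 was higher (median -0.64 on the log2 scale). Over all tested entries, 29.3% were lower and 30.1% higher. Gpo1, the mitochondrial glycerol-3-phosphate dehydrogenase, had 46.3 ± 8.22 CPM in EcRi and 358 ± 53.8 CPM in the control (log2 fold change -2.95, adjusted p = 1.09e-05 from edgeR). Gpdh1, the cytosolic enzyme of the same shuttle, had 144 ± 11.6 CPM in EcRi and 782 ± 138 CPM in the control (-2.44, adjusted p = 1.32e-05). The glycerol kinase gene Gk2 had 33.7, 14.99 and 40.0 CPM in EcRi and 98.5, 85.0 and 120 CPM in the control. Like the Eglp genes, Gpo1 and Gpdh1, but unlike the listed gene Gpat4, Gk2 was lowest in EcRi replicate 2. Its paralog Gk1 had 55.2 ± 3.03 CPM in EcRi and 54.6 ± 6.66 CPM in the control (log2 fold change 0.02, adjusted p = 0.902), and the lipase gene Hsl was higher (0.84), while Sodh1, a sorbitol dehydrogenase, was lower (-1.12). With library totals, 5 genes of this list were lower and 5 were higher, but that scaling moved all entries upward, to 6982 higher and 1546 lower of 12193 tested, against 3676 and 3574 with TMM.

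Water follows salt across epithelia, and 26 genes of salt transport were listed and tested, of which 11 were lower and 4 higher (median -0.14 on the log2 scale). The shares over all tested entries were 29.3% lower and 30.1% higher. With library totals, which moved all entries upward as given above, the counts of this list became 5 lower and 16 higher. The potassium channel gene Irk2 fell most, to 10.2 ± 6.21 CPM in EcRi, against 176 ± 22.3 CPM in the control (log2 fold change -4.10, adjusted p = 0.000705 from edgeR). Irk3, a channel of the same family, had 6.74 ± 1.77 CPM in EcRi and 36.2 ± 4.98 CPM in the control (-2.42). The carbonic anhydrase gene CAH2 rose to 517 ± 112 CPM in EcRi, against 50.9 ± 11.8 CPM in the control (3.35, adjusted p = 2.25e-05), and nrv2, a beta subunit of the sodium pump, was also higher (0.85). The other listed subunits of the pump, Atpalpha (-0.90), nrv1 (-0.41) and nrv3 (-1.93), were lower.

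Fluid secretion by the tubules is set by diuretic and antidiuretic peptides. Of 10 such peptide and receptor genes, 7 were tested, 3 were lower and 2 were higher (median -0.04 on the log2 scale). That is 42.9% lower and 28.6% higher, against 29.3% and 30.1% over all tested entries. The lower genes were all receptors: Dh31-R (log2 fold change -1.04), CapaR (-1.04) and Dh44-R2 (-0.97). The receptor Lkr had 13.2 ± 2.51 CPM in EcRi and 13.6 ± 0.530 CPM in the control. The peptide genes Dh44 and ITP, a diuretic and an antidiuretic hormone, rose. Dh44 had 114.7, 174.6 and 91.2 CPM in EcRi and 2.23, 2.22 and 2.24 CPM in the control (log2 fold change 5.83, adjusted p = 9.97e-06 from edgeR), and ITP had 91.1 ± 12.5 CPM in EcRi and 17.3 ± 1.59 CPM in the control (2.39). The peptide gene Dh31 was not called (0.17, adjusted p = 0.125). With library totals, 2 genes of this list were lower and 4 were higher.

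Around bib, 24 Notch pathway genes were listed and 20 tested, of which 13 were higher and 1 was lower (median 0.47 on the log2 scale). Of all tested entries, 30.1% were higher and 29.3% lower. The ligand gene Delta had 6.29 ± 1.29 CPM in EcRi and 1.55 ± 0.355 CPM in the control (log2 fold change 2.02, adjusted p = 0.000151 from edgeR), and fng, which modifies the receptor with sugar, had 19.9 ± 0.761 CPM in EcRi and 5.70 ± 1.66 CPM in the control (1.80). The lower gene was the Notch target E(spl)mgamma-HLH, with 0.112 ± 0.0343 CPM in EcRi and 1.10 ± 0.256 CPM in the control (-3.29). The co-repressor gene gro had the smallest increase among called genes of the list with 1 CPM or more (0.22). With library totals, 18 were higher and 1 was lower.

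Marker genes of the cell types that the dissected organ can hold moved with genotype as well, and their part in the aquaporin results was not tested. The counts of markers called stand beside 29.3% lower and 30.1% higher over all tested entries. None of the listed tubule, enterocyte, copper cell, hindgut or muscle markers was at 0 in all libraries. The 5 stellate cell markers summed to 111 to 141 CPM in EcRi and 243 to 307 CPM in the control, with 2 of 5 called lower, ClC-a and tsh. ClC-a made up most of the control sum (44.5 CPM in EcRi, 170 CPM in the control), and SecCl, Lkr and tio were not called. The 6 principal cell markers summed to 1671 to 1820 CPM in EcRi and 1728 to 1951 CPM in the control, with 3 called lower (Irk3, CapaR and NaPi-T) and 1 higher (Uro, log2 fold change 1.22). The near-equal sums hold unlike genes, since Uro alone had 1308 CPM in EcRi and 562 CPM in the control. They also depend on TMM. With library totals the sums were 2089, 2102 and 2361 CPM in EcRi and 1449, 1491 and 1391 CPM in the control. Alp4, another of these markers, had 312, 56.2 and 401 CPM in EcRi and 921, 784 and 1088 CPM in the control. Alp4 was, like Eglp3 and ClC-a, lowest in EcRi replicate 2, where Uro was highest. Tubule RNA was thus present in both genotypes.

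The 9 enterocyte markers summed to 7695 to 11470 CPM in EcRi and 27190 to 43080 CPM in the control. Of these, 6 were lower, mostly genes of digestive proteases, and 1, the transcription factor gene nub, was higher. Myo31DF, the gene after which the Myo1A-GAL4 driver is named, had 661 ± 26.5 CPM in EcRi and 688 ± 30.2 CPM in the control (log2 fold change -0.06, adjusted p = 0.655 from edgeR). The 9 visceral muscle markers summed to 956 to 1160 CPM in EcRi and 2757 to 3317 CPM in the control, with 8 of 9 lower. The 9 tracheal markers summed to 836 to 946 CPM in EcRi and 132 to 194 CPM in the control, with 7 of 9 higher. Most of the EcRi sum came from serp (363 CPM in EcRi) and verm (281 CPM in EcRi), while btl (0.18) and dysf (-0.26) were not called. The 5 hindgut markers summed to 216 to 233 CPM in EcRi and 124 to 129 CPM in the control, and hh was the gene among them that differed most (3.57), whereas byn, which defines the hindgut, was not called (-0.21). The sums of the 8 fat body markers overlapped between the genotypes, at 417, 253 and 1186 CPM in EcRi and 843, 139 and 43.3 CPM in the control. Of these markers 2 were higher and 6 were not called. The higher ones were Fbp1 (234 CPM in EcRi, 3.02 CPM in the control, log2 fold change 6.27) and Apoltp (2.56). With TMM, the copper cell sum was lower in each EcRi library (212 to 277 CPM in EcRi, 295 to 312 CPM in the control). So was the enteroendocrine sum (206 to 235 CPM in EcRi, 269 to 305 CPM in the control). Of their markers, 2 of 3 and 3 of 10 were called lower, while lab, pros and Tk were not called. The sums for progenitors, neurons and salivary gland were higher in each EcRi library. The haemocyte sums overlapped, with 2 of 8 markers lower, PPO1 (log2 fold change -3.83) and PPO2 (-3.40), and 1 higher, lz (3.48). With library totals the copper cell sum was higher in each EcRi library (266 to 336 CPM in EcRi, 210 to 261 CPM in the control), and the enteroendocrine ratio of medians was 1.25. Among the progenitor markers, Delta and E(spl)mbeta-HLH, both also in the Notch list, were higher, while esg (0.27) and klu (0.16) were not called. The neuron sum was mostly Syt1 (118 CPM in EcRi, 73.8 CPM in the control), while elav was lower (-0.39), and the salivary gland sum was below 1 CPM with 2 of 6 genes tested.

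**Figure D5:**
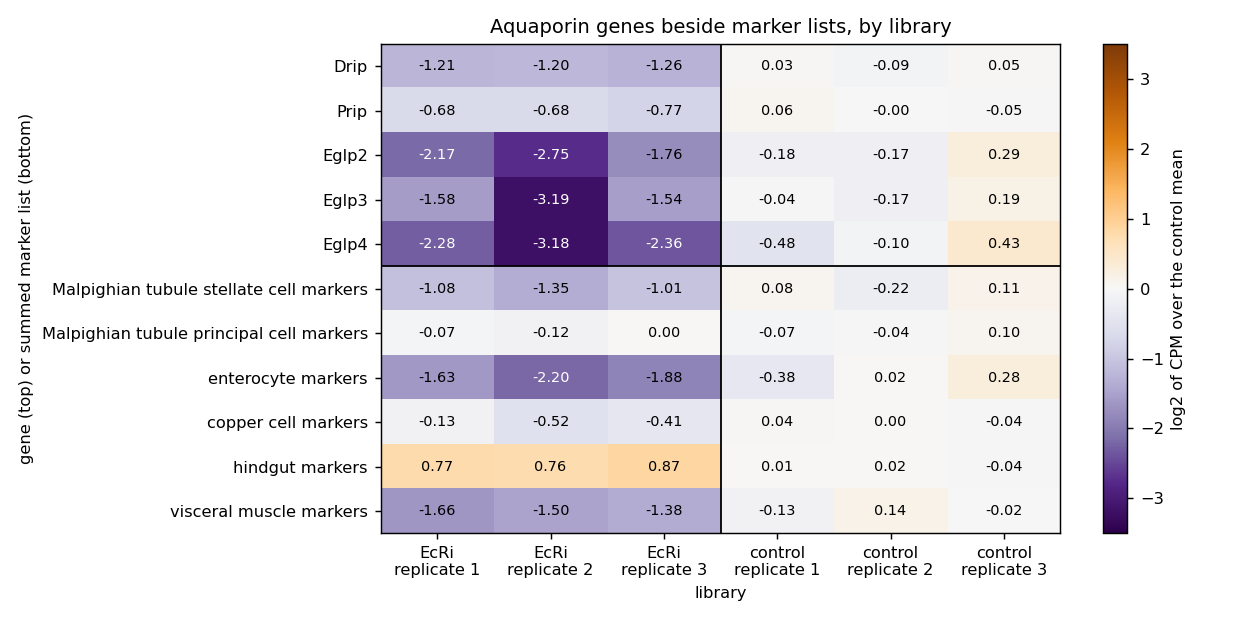
Log2 of CPM over the control mean in each EcRi and control library (columns) for Drip, Prip, Eglp2, Eglp3 and Eglp4 (top rows) and for the summed CPM of marker lists (bottom rows), with the value printed in each cell. EcRi replicate 2 has the lowest value of the row for Eglp2 (-2.75), Eglp3 (-3.19) and Eglp4 (-3.18). The same holds for the stellate cell (-1.35), enterocyte (-2.20), copper cell (-0.52) and principal cell (-0.12) markers. With TMM scaling, the principal cell markers stay between -0.12 and 0.10.

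Members were also set against these sums within each library, a step added after the values had been seen. These ratios follow the genes that lead each sum. For stellate cells this was ClC-a in the control, while in EcRi SecCl (50.4 CPM) and ClC-a (44.5 CPM) were the largest. Uro led the principal cell sum in EcRi. For enterocytes it was the protease gene Jon65Aiii, with 5063 CPM in EcRi and 21849 CPM in the control. Drip per 1000 CPM of stellate cell markers was 743, 899 and 680 CPM in EcRi and 782, 889 and 773 CPM in the control, so the genotypes overlapped. On that scale Prip was above the control in each EcRi library (mean log2 difference 0.43), and Eglp2, Eglp3 and Eglp4 were below it (-1.07, -0.95 and -1.42). Per 1000 CPM of principal cell markers, the 5 members that fell lay below the control in each EcRi library, with mean log2 differences from -2.50 for Eglp4 to -0.65 for Prip. Per 1000 CPM of enterocyte markers, Eglp4 was 2.47, 1.97 and 2.79 CPM in EcRi and 3.63, 3.59 and 4.33 CPM in the control, still without overlap. Eglp2 and Eglp3 overlapped on that scale, and Drip and Prip lay above the control, whereas the enterocyte marker Myo31DF, as given above, was not called and nub was higher. Which of these lists stands for the cells that express each member in larval intestine is not given by these data.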

How the data were processed

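Total RNA of 6 intestine samples was sequenced after SMARTer library preparation; the labels name a Qiagen RNeasy kit and the methods TRIZOL. Reads were trimmed (Trim Galore!), mapped to dm6 by HISAT2 and assigned to Ensembl genes by featureCounts. Versions, the strand setting and the treatment of multimapping reads are not given in the sources used here. The deposited values are the authors' raw counts, 1 column per library. Symbols, coordinates and exon lengths came from Ensembl release 115 (BDGP6.54, dm6 coordinates); 99.8% of the gene identifiers had a symbol, and 4 listed symbols were matched by alias.

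Testing used edgeR 4.0.16 under R 4.3.3: filterByExpr, TMM, the robust quasi-likelihood test and Benjamini-Hochberg adjustment at 0.05 over all 12193 tested entries. The standard error is the log2 fold change divided by the square root of F. Log2 CPM used a prior count of 2. limma 3.58.1 (voom, the tool of the study) and DESeq2 1.42.0 were alternatives, with other scalings and filters, a replicate block and each library left out. The test was checked on simulated counts of 11980 entries, of which 11790 were unchanged. That setting is unlike these data, where 59.5% of entries were called. In it, true log2 fold changes of -1 and 1 were called for 66.7% and 62% of entries. For -2 and 2 the shares were 93.3% and 92%, and for unchanged entries 0.0594%. No library was a copy of another: counts of replicates differed beyond sampling noise. The detection limit of 3 counts covers counting error only.

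The members and lists were chosen with earlier results of these data known. Named genes are the 7 members, their neighbours, the 5 genes most like Drip, and per list the called genes with the 2 largest and 2 smallest log2 fold changes at 1 CPM or more; other named genes were chosen after their values were seen.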

Additional observations from a re-analysis of the deposited data

How the results depend on the processing

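Over 97 recomputed log2 fold changes of the 7 members, 96 had the same sign and the same call, and the exception was Prip with library totals. There, 4 members were lower and 1 higher, as against 5 and 1 with TMM; 3 of the 4 that remained lower were Eglp genes. At an adjusted p below 0.01 Eglp3 was no longer called, which left 4 lower. Over all 12193 tested entries, 2790 were lower and 2749 higher at that limit. When 1 library at a time was removed, log2 fold changes lay between -1.28 and -1.19 for Drip, -0.73 and -0.68 for Prip, 1.67 and 2.48 for bib, -0.96 and -0.39 for Eglp1, -2.43 and -1.95 for Eglp2, -2.17 and -1.55 for Eglp3 and -2.77 and -2.27 for Eglp4. A minimum of 10 counts in every library left Eglp1 untested. Over 13 marker lists, the median ratio of summed CPM in EcRi over control was 0.977 with TMM and 1.45 with library totals. Without length correction, 11 of 14 shares in the family sum moved by more than their SD, and the water channels then held the larger part in every library. The glycerol list had 2 higher genes without control replicate 1.

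Replicate numbers are shared between the genotypes, but same-numbered libraries did not deviate together (correlations of -0.06, 0.04 and -0.06 over tested entries), and not every library was closest to its own number. With the number as a replicate block, 1 member was higher and 5 were lower as before, and over all entries 3328 were higher and 3327 lower, against 3676 and 3574.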
